A study of Mus musculus with 40 samples.

Results

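The Period genes (Per1, Per2 and Per3) and the cryptochrome genes (Cry1 and Cry2) encode the repressors of the circadian clock. Their 5 rows were taken by symbol from a table of 20953 genes, and all 5 were among the 14173 genes that passed the filter on low values. RNA was sequenced from the dorsal hippocampus of 40 mice, with 1 library per mouse. The labels give C57BL/6J for every mouse, and the methods of the study give the HDAC3flox/flox line and its wildtype littermates as kept on a C57BL/6 background. Young wildtype mice (YWT, 2 to 4 months old) and old wildtype mice (OWT, 18 to 20 months) each gave 6 homecage (HC) and 6 trained (BV) libraries, and old HDAC3flox/flox mice (H3F, 18 to 20 months) gave 8 and 8. Trained mice explored objects in a session of object location memory (OLM) training and were killed 60 min later, and homecage mice were taken directly from their cage.

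Both sets of old mice, wildtype littermates included, had received AAV2.1-CaMKII-Cre in the dorsal hippocampus, where the CaMKII promoter drives Cre recombinase in excitatory neurons. Deletion of Hdac3, the gene for histone deacetylase 3, is therefore expected only in those cells of the H3F mice, while other cells in the tissue keep the gene. The young mice came from an earlier study of the same laboratory, so age and study cannot be told apart. Whether the young mice received any infusion is not given in the sources used here. The groups hold both sexes. Behavior took place in the light phase, but the clock time of each harvest is not given in the sources used here, and the time of day cannot be set beside any level. In whole tissue, fewer cells of a type and less RNA per cell cannot be told apart.

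The clock works as a loop of transcription and translation. CLOCK (or NPAS2) and BMAL1, the product of Arntl, bind E-box elements and switch on the Per and Cry genes, and the PER and CRY proteins return to the nucleus and block that activity. Per1 and Per2 are also immediate-early genes, which neuronal activity and light can induce through cAMP response elements (CREs), and Per1 is a target of the glucocorticoid receptor. D-box elements, bound by the PAR bZIP factors DBP, TEF and HLF and by the repressor NFIL3, add a further input. The mature hippocampus expresses all of these genes outside the master clock of the suprachiasmatic nucleus.

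The levels were values of RPKM, read numbers divided by exon length and by library size, so genes can be compared per length. Low values of the same gene gave the depth of each library relative to the others, and the deepest library was 3.05 times as deep as the shallowest. Library H3F-HC-121B stood apart, with a median correlation of 0.877 to the other libraries. Its dentate granule cell markers averaged 1.22 on the log2(RPKM + 0.5) scale, and the highest H3F-HC library reached 4.10. Prox1, a defining transcription factor of dentate granule cells, stood at 0.883 RPKM in the lowest H3F-HC library and at a median of 14.9 RPKM in that group. In the 4 YWT and OWT groups, Prox1 was between 13.4 and 27.1 RPKM in each library. Hdac3 averaged 16.2 ± 1.62 RPKM in H3F-HC and 18.4 ± 4.35 in H3F-BV (SD, n = 8 each), beside 30.0 ± 1.63 in OWT-HC and 30.3 ± 1.89 in OWT-BV (SD, n = 6 each).

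Per1 lies on the forward strand of chromosome 11 of mm10, from 69095217 to 69109960. The other members lie on reverse strands. Per2 covers 91415982 to 91459324 of chromosome 1 and Per3 covers 151003652 to 151044665 of chromosome 4. Cry1 covers 85131700 to 85185064 of chromosome 10 and Cry2 covers 92403646 to 92434043 of chromosome 2. Cry2 shares 295 exon bases with D930015M05Rik on the other strand, and since the libraries carried no strand, reads there could belong to either gene. D930015M05Rik averaged 0.333 RPKM over the 40 libraries. Per3 lies inside the span of Camta1 and shares 0 exon bases with it.

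The stretches before the start sites are shown because they hold the elements through which the clock loop and activity signals are known to reach these genes. RefSeq sequence of GRCm38.p6, the build also called mm10, gave 5 windows for 4 of the 5 members, and Per2 had no entry. Both Per1 windows lie inside the gene span given above, and no window lies before its first base, 69095217. The first and second start of Per1 are numbered among these windows only. Capitals mark matches on either strand, within the 250 bases before the annotated start, to CACGTG (E-box), TTATGNAA (D-box) or TGACG (the core of the CRE). The whole window is printed for Per1, and only the part with the matches for Per3, Cry1 and Cry2. Positions count back from the start, which the printed parts of Per3 and Cry2 do not reach. Of 32851 windows of the same length, 6.02% held CACGTG, 3.07% held TTATGNAA and 17.8% held TGACG. The full CRE, TGACGTCA, whose letters include TGACG, was in 1.55% of the windows and in none of these 5. The guide sequence that the study aimed at a CRE of the Per1 promoter holds TGACGTCA, so that site lies outside both Per1 windows. A match is a description of the letters and not a bound site.
Per1, first start (chr11:69098699-69098948, forward): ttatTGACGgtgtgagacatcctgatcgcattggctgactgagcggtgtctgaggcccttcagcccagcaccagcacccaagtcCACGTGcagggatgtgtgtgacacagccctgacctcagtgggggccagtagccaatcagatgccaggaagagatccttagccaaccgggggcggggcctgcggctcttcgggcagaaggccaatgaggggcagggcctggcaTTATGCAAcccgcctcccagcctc
Per1, second start (chr11:69099902-69100151, forward): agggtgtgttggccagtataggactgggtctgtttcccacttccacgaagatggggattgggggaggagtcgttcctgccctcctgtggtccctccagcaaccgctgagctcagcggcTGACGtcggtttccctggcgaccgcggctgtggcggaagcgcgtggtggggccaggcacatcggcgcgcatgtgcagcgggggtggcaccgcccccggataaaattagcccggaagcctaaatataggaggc
Per3 (chr4:151044791-151044890, reverse): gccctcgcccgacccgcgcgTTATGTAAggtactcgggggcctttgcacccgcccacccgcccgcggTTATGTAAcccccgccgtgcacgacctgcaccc
Cry1 (chr10:85185055-85185154, reverse): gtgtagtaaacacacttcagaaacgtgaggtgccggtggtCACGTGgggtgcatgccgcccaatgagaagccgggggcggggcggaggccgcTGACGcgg
Cry2 (chr2:92434199-92434298, reverse): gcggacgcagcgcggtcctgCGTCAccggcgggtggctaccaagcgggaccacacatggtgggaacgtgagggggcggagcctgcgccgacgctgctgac

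The first Per1 window held an E-box that began 166 bases before the start, a D-box at 24 bases and a CRE core at 246 bases. The second Per1 window held a CRE core at 132 bases before the start. Per3 held TTATGTAA at 205 and again at 158 bases before its start, and no E-box of these letters in the window. Cry1 held an E-box at 60 bases and a CRE core at 8 bases before the start. The end of this window, with the CRE core, lies inside the Cry1 span given above. Cry2 held only a CRE core, as CGTCA on the strand shown, at 209 bases. Of the 4 members with a window, Per1 and Cry1 carried the E-box letters and Per1 and Per3 the D-box letters.

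Cry2 had the highest level of the 5 genes per length, with a mean of 33.7 RPKM over the 40 libraries. Per1 averaged 15.4 RPKM, Per2 6.76, Per3 6.14 and Cry1 5.50. The mean of Per1 increased in the order YWT-HC, H3F-HC, OWT-HC, YWT-BV, OWT-BV and H3F-BV, from 11.8 to 19.2 RPKM. The 3 homecage groups thus came before the 3 trained groups, but of the 5 steps in this order, only the first was larger than the larger SD of its neighbors. Per2 had the same order of groups, from 5.48 to 8.16 RPKM, and none of its steps exceeded that SD. In contrast, Cry1 was ordered by set of mice at its lower end, with YWT-HC and YWT-BV lowest and the other 4 groups between 5.21 and 6.23 RPKM. Group means of Cry2 stayed between 31.4 and 37.9 RPKM, and no neighbors in its order differed by more than the larger SD. Per3 ran from 5.01 RPKM in H3F-HC to 6.82 RPKM in OWT-BV, and only YWT-HC and YWT-BV differed by more than that SD among neighbors.

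**Figure D1:**
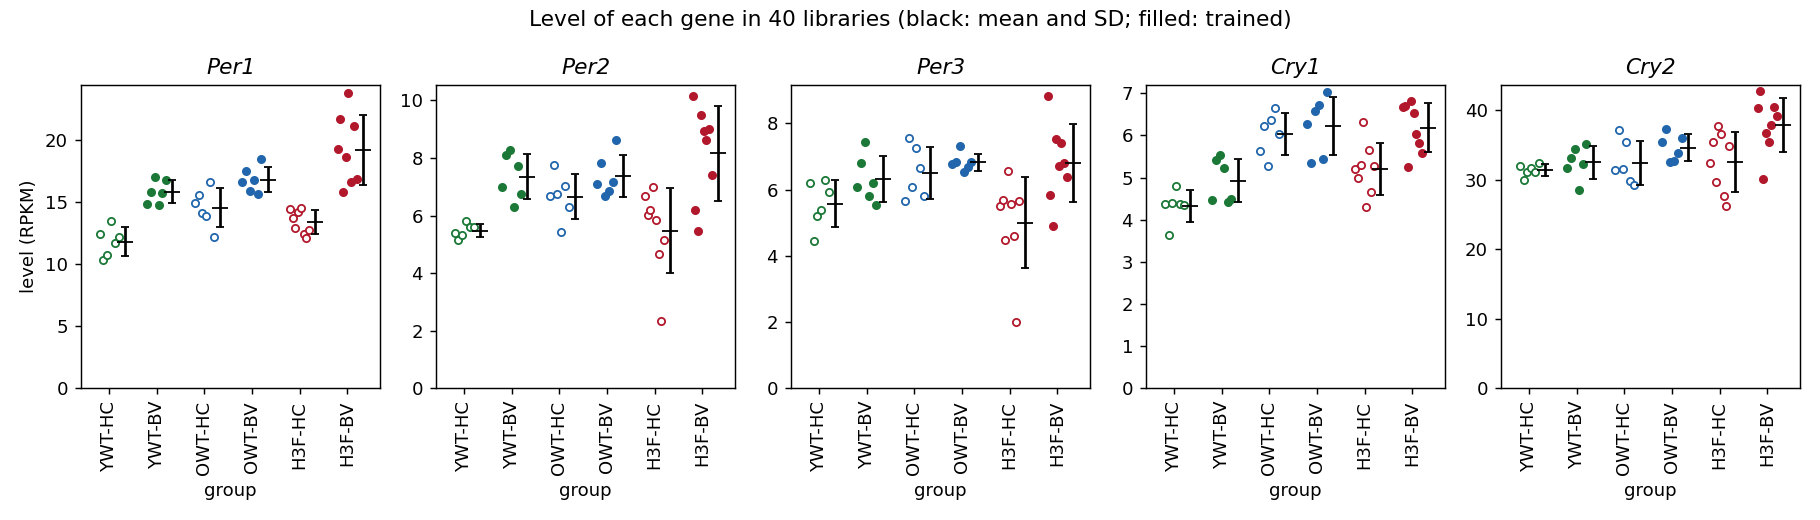
RPKM (vertical axes, from 0) of the 5 genes in each of the 40 libraries, by group, with open points for homecage and filled points for trained mice, and black bars for the mean and SD. Per1 did not overlap between homecage and trained mice in YWT (up to 13.5 against 14.7 and above) or H3F (up to 14.5 against 15.8 and above), and 1 H3F-HC library lay far below the rest for Per2 and Per3.

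The first comparison asked which genes changed with OLM training in young mice. Per1 and Per2 were higher in trained mice and were called, and Per3, Cry1 and Cry2 were not. Genes were tested with limma on log2(RPKM + 0.5) and called when p was under 0.05 and the value adjusted by Benjamini-Hochberg over all 14173 genes was under 0.15. By this rule 0.31% of genes were called higher, 44 in number, against 2 of the 5 members. All 5 members had a positive difference, as did 54.1% of all genes, and the median was 0.17 for the members and 0.01 for all genes.

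In YWT, Per1 was 10.3, 11.9 and 13.5 RPKM in the lowest, median and highest homecage library and 14.7, 15.8 and 17.0 RPKM in the trained ones. Every trained mouse was above every homecage mouse, and the log2 fold change was 0.41 (SE 0.06, adjusted p = 0.0433 from limma), the fifth smallest p of all genes tested. The exact permutation test gave p = 0.00216 (two-sided, 6 against 6 mice), the smallest that this design allows. The exact tests covered 5 genes in 3 sets of mice, and their 15 p-values were not adjusted.

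Per2 was 5.14, 5.49 and 5.80 RPKM in the lowest, median and highest YWT-HC library and 6.31, 7.35 and 8.26 RPKM in YWT-BV. Here too the ranges were apart, with a log2 fold change of 0.39 (SE 0.06, adjusted p = 0.0608 from limma), and the exact permutation test again reached its smallest p, 0.00216. The members with ranges apart were therefore 2 of 5, and 0.741% of all genes tested had every YWT-BV library above every YWT-HC library.

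Per3, whose product is a PER protein with a lesser role in keeping the clock of mice, had a log2 fold change of 0.17 in YWT with a 95% interval from -0.02 to 0.35. Cry1, a strong repressor of CLOCK and BMAL1, also differed by 0.17, with an interval from 0.02 to 0.32 (adjusted p = 0.431 from limma). Its levels were 3.64 to 4.80 RPKM in homecage and 4.43 to 5.53 RPKM in trained mice, and these ranges overlapped. Cry2 differed by 0.05 (interval -0.05 to 0.14). One homecage library, YWT-HC-1905, was the lowest of its group for all 5 genes, and 1 trained library, YWT-BV-1915, was the highest of its group for 4 of them.

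The call of Per2 in YWT was lost in the model of all 40 libraries, where its log2 fold change was 0.39 and 2 genes in all were called higher. It was also lost without YWT-HC-1907 (0.38), YWT-BV-1906 (0.40) or YWT-BV-1924 (0.37), where 5, 6 and 8 genes were called higher, Per1 among them. With the level of microglia markers as a covariate, added after the data were seen, 0 members were called, but the log2 fold changes were 0.38 for Per1 and 0.37 for Per2, and 5 genes in all were called higher. That level differed little between these groups, with means of 3.75 ± 0.07 in YWT-HC and 3.67 ± 0.06 in YWT-BV on the log2 scale (SD, n = 6 each).

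Around these genes in YWT, 0 of 7 clock activators were called and 4 of them had a positive difference. Of the 7 clock repressors outside the Per and Cry families, all had a positive difference and 1 was called. This was Bhlhe40, which encodes a basic helix-loop-helix repressor that competes for E-boxes, at 35.0 ± 2.33 RPKM in homecage and 41.4 ± 2.34 RPKM in trained mice (SD, n = 6 each, log2 fold change 0.24, adjusted p = 0.110 from limma). None of the 3 PAR bZIP genes was called. None of the 15 genes listed as kinases and ubiquitin ligases that act on PER and CRY proteins was called either. That list also holds enzymes of other kinds, such as the deubiquitinase gene Usp2. Among 20 genes driven by CREB or neuronal activity, 6 were called higher, and their median was 0.28. Of 18 glucocorticoid-induced genes 1 was called, and their median was 0.09.

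In old wildtype mice, Per1 and Per2 were higher on average after training, but neither passed the test. All 5 members again had positive differences, with a median of 0.10, and 44.4% of all genes were positive. None was called by limma, and 0% of all genes was called higher, with 503 genes higher and 622 lower at an unadjusted p under 0.05. Per1 was 12.2, 14.5 and 16.6 RPKM in the lowest, median and highest OWT-HC library and 15.6, 16.7 and 18.4 RPKM in OWT-BV. Only 3 of 6 trained mice were above all homecage mice.

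The log2 fold change of Per1 in OWT was 0.21 with a 95% interval from 0.05 to 0.36 (adjusted p = 0.530 from limma), and the exact permutation test gave p = 0.0130. Without OWT-HC-110A, Per1 was called at 0.23, as it was with library weights, also at 0.23. Calls were then more common for all genes, with 417 higher and 1438 lower without that library and 618 higher and 1754 lower with the weights. Per2 was 5.42, 6.72 and 7.74 RPKM at the lowest, median and highest in OWT-HC and 6.69, 7.13 and 8.63 RPKM in OWT-BV, and the ranges overlapped (log2 fold change 0.14, interval -0.04 to 0.32). Per3, Cry1 and Cry2 differed by 0.07, 0.04 and 0.10 on the log2 scale, each with an interval that held 0. No member had ranges apart in OWT, and 0.176% of all genes did.

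Some lists of cell markers had differences of 1 sign between the OWT groups, though none of their genes was called. All 8 CA3 markers had positive differences (median log2 0.47) and all 8 CA1 markers negative ones (median -0.36). All 10 choroid plexus markers were positive, with a median of 1.62. The part of these in the values of the members was not tested. The clock repressors outside the Per and Cry families had 2 of 7 positive and a median of -0.11 in OWT.

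In old HDAC3flox/flox mice, Per1 was higher in every trained mouse than in every homecage mouse. The lowest, median and highest library stood at 12.1, 13.3 and 14.5 RPKM in H3F-HC and at 15.8, 18.9 and 23.8 RPKM in H3F-BV. The log2 fold change was 0.50 with a 95% interval from 0.32 to 0.67 (adjusted p = 0.154 from limma). This was the smallest p of all 14173 genes, but the adjusted value lay just outside the threshold, so Per1 was not called. The exact permutation test gave p = 0.000155 (two-sided, 8 against 8 mice), the smallest possible here. Ranges were apart for 0.0141% of all genes, which is 2 genes, and for 1 of the 5 members.

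No member was called in H3F, and 0% of all genes was called higher by limma, with 654 higher and 1774 lower at an unadjusted p under 0.05. All 5 members had positive differences, with a median of 0.45, beside 47.5% of all genes and a median of -0.01. This count was close to the threshold and moved with the setting. Per1 was called with a pseudocount of 1, a minimum mean RPKM of 1, median-ratio scaling or quantile normalization, where 3, 2, 3 and 4 genes in all were called higher. All 5 members were called in 4 other settings, in which calls were common over all genes. The genes called were 1352 higher and 2280 lower in the model of all 40 libraries, 2939 and 4255 with library weights, 593 and 1671 without H3F-HC-112B, and 916 and 2179 without H3F-BV-113D. H3F-HC-112B was the highest of its group for 4 of the 5 genes, and H3F-BV-113D was the lowest of its group for all 5.

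Per2 was 2.33, 5.93 and 6.98 RPKM in the lowest, median and highest H3F-HC library and 5.45, 8.78 and 10.1 RPKM in H3F-BV. Of the 8 trained mice, 6 were above all homecage mice. The log2 fold change was 0.56 (SE 0.18, adjusted p = 0.240 from limma), and the exact permutation test gave p = 0.00482. Per3 was 2.00, 5.54 and 6.56 RPKM in H3F-HC and 4.92, 6.77 and 8.82 RPKM in H3F-BV, by the same order of lowest, median and highest. Its log2 fold change was 0.45 (SE 0.18), with p = 0.00886 in the exact permutation test. The SE of these differences was over 2 times that of Per1.

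The lowest value of both genes came from H3F-HC-121B, the library with the lowest dentate marker level. Without it, the log2 fold change was 0.41 for Per2 and 0.29 for Per3, while Per1 stood at 0.48. All 10 dentate granule markers were positive in this comparison, with a median of 0.72, and all 8 microglia markers were negative, with a median of -0.72. With the dentate level as a covariate (added after the data were seen), Per2 differed by 0.32, Per3 by 0.17 and Per1 by 0.51. With the microglia level as a covariate, Per2 differed by 0.20, Per3 by 0.05, Cry2 by 0.01 and Per1 by 0.46. Thus the difference of Per1 was about as large with either covariate, and those of Per2 and Per3 were smaller. Within groups, Per1 had r = -0.04 with the dentate level and -0.20 with the microglia level, so these covariates could move it little. With the CA1 markers it had r = 0.48, and their level was not used as a covariate.

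The cryptochromes had smaller log2 fold changes than the Per genes in H3F. Cry1 was 4.29, 5.23 and 6.33 RPKM in the lowest, median and highest H3F-HC library and 5.26, 6.28 and 6.82 RPKM in H3F-BV, a log2 fold change of 0.23 (interval 0.06 to 0.40, exact permutation p = 0.00761). Cry2, the most abundant member, was 26.2, 33.7 and 37.7 RPKM in H3F-HC and 30.1, 38.6 and 42.8 RPKM in H3F-BV, a log2 fold change of 0.22 (interval 0.03 to 0.41, exact permutation p = 0.0274). The ranges of both genes overlapped. Among the 3 clock outputs, Hlf and Tef had log2 fold changes of 0.63 and 0.30 (adjusted p = 0.240 for each from limma). Dbp had 0.08, and none of the 3 was called. The 20 genes driven by CREB or neuronal activity had a median of 0.05 in H3F, and the 18 glucocorticoid-induced genes a median of 0.23, with 0 called in either list.

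**Figure D2:**
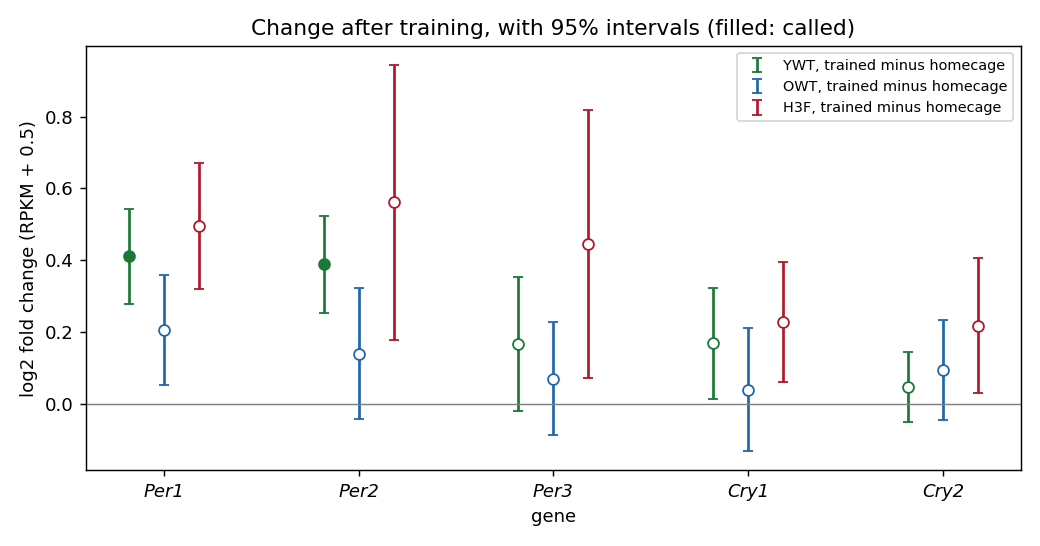
Log2 fold change of trained over homecage mice (vertical axis, RPKM + 0.5) for each gene in YWT, OWT and H3F, with 95% intervals from limma, and filled points for called genes. Per1 stood at 0.41 in YWT, 0.21 in OWT and 0.50 in H3F, and all 15 points lay above 0.

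The differences between these training effects were tested as interaction terms, and any pair of these 3 comparisons shares 1 set of mice. None called any member, and 0% of all genes was called in either direction in each of the 3 (H3F minus OWT, OWT minus YWT, and H3F minus YWT). For H3F minus OWT, the Per1 effect was larger by 0.29 on the log2 scale, with an interval from 0.06 to 0.52 (adjusted p = 0.997 from limma, unadjusted p of 0.0163). For Per2 the difference was 0.42 with an interval from -0.05 to 0.89, and all 5 members were positive, as were 48.9% of all genes. Without H3F-HC-121B, the differences were 0.27 for Per1, 0.27 for Per2 and 0.22 for Per3. For this comparison 596 genes passed an unadjusted p under 0.05.

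For OWT minus YWT, the Per1 effect was smaller by 0.20 on the log2 scale (interval -0.40 to -0.01) and the Per2 effect by 0.25 (interval -0.47 to -0.03), each with an adjusted p of 0.496 from limma. Cry2 was the only member with a positive difference, at 0.05. For H3F minus YWT, the Per1 effects differed by 0.09 with an interval from -0.14 to 0.31, and those of Per2 by 0.17 (interval -0.28 to 0.63). Without H3F-HC-121B, the difference for Per2 was 0.03. The intervals of all 5 members in the last comparison held 0. The smaller effect in old wildtype mice therefore did not pass the test as a difference, at 6 to 8 mice per group. In these 2 comparisons, 1423 and 1753 genes passed an unadjusted p under 0.05.

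The level comparisons asked how the genes stood before and after training across sets of mice. In the homecage, 4 of the 5 members were called higher in old than in young wildtype mice, all except Cry2. In this comparison 32.1% of all genes were called higher and 17.7% lower, so a call was common. The median of the members was 0.25 and that of all genes 0.05. Cry1 had the largest difference. It was 3.64, 4.37 and 4.80 RPKM in the lowest, median and highest YWT-HC library and 5.28, 6.13 and 6.64 RPKM in OWT-HC. Every old mouse was above every young mouse, for 1 of 5 members and 9.07% of all genes.

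The log2 fold change of Cry1 was 0.44 (SE 0.07, adjusted p = 0.00145 from limma). Per1 was higher by 0.29 (adjusted p = 0.0138), Per2 by 0.25 (adjusted p = 0.0139) and Per3 by 0.21 (adjusted p = 0.0933), all from limma. Their ranges overlapped. Under quantile normalization Cry1 was the only member called, with Per1 at 0.16, Per2 at 0.06 and Per3 at 0.00. The median of all genes was then -0.10, and 2492 genes were called higher and 5270 lower. In the model of all 40 libraries only Per1 and Cry1 were called, among 3760 genes higher and 1577 lower. The call of Per3 was also lost without any filter on low values, under median-ratio scaling, with library weights, by a regularized t on RPKM, with the dentate covariate, at an adjusted p under 0.05, and without OWT-HC-110A, OWT-HC-126A, OWT-HC-129A, YWT-HC-1905, YWT-HC-1907 or YWT-HC-1908, with log2 fold changes between 0.12 and 0.22 in these settings. With the microglia covariate Per1 was not called (0.36, adjusted p = 0.199 from limma), and 792 genes higher and 615 lower were called in all. Cry2 differed by 0.04 with an interval from -0.08 to 0.16, and its sign turned under median-ratio scaling and quantile normalization.

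Arntl and Npas2, a pair of activators of the loop, were called lower in old mice. Arntl, which encodes BMAL1, was 11.5 ± 0.54 RPKM in YWT-HC and 7.76 ± 0.68 RPKM in OWT-HC (SD, n = 6 each, log2 fold change -0.53, adjusted p = 0.000404 from limma). Npas2, which encodes a partner of BMAL1, was 4.91 ± 0.49 and 3.03 ± 0.88 RPKM (SD, n = 6 each, log2 fold change -0.66, adjusted p = 0.00975 from limma). These were 2 of 7 activators, beside 17.7% of all genes called lower. Of the 7, 2 had a positive difference, and the median was -0.07. Of the 7 clock repressors outside the Per and Cry families, 5 were called higher, with a median of 0.35. Bhlhe41, a repressor related to Bhlhe40, rose by 0.76 and Nfil3, which represses through D-boxes, by 0.43 on the log2 scale.

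Of the 15 genes in the list of kinases and ubiquitin ligases, which holds other enzymes too, 6 were called higher and 2 lower, with a median of 0.05. Ddb1, which encodes an adaptor of a ubiquitin ligase complex, rose by 0.16 on the log2 scale (adjusted p = 0.00444 from limma). Fbxl21, which encodes a ligase component that acts on CRY proteins, fell by 0.26 on the log2 scale. Microglia markers had 6 of 8 genes called higher and 1 called lower in OWT-HC, with a median of 1.21. CA1 markers had 4 of 8 called lower, with a median of -0.43, and oligodendrocyte markers 4 of 8, with a median of -0.51. Choroid plexus markers had 6 of 10 called lower, with a median of -1.63. The microglia level ran from 3.60 to 3.82 in YWT-HC and from 3.84 to 5.44 in OWT-HC on the log2 scale. With no overlap, the microglia covariate could hardly be told apart from the set of mice. Beyond the dentate covariate, the part of such markers in these differences was not tested.

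After training, Cry1 was the only member called higher in old than in young wildtype mice. Of all genes, 19.1% were called higher and 8.81% lower. Cry1 was 4.43, 4.86 and 5.53 RPKM in the lowest, median and highest YWT-BV library and 5.36, 6.43 and 7.03 RPKM in OWT-BV, and these ranges overlapped. The log2 fold change was 0.31 (SE 0.08, adjusted p = 0.0216 from limma). No member had ranges apart, and 7.42% of all genes did. With the microglia level as a covariate Cry1 was not called, at a log2 fold change of 0.25, and 2 genes higher and 2 lower were called in all. In this comparison 7 of 8 microglia markers were called higher and 1 was called lower (median 1.01). Of the CA1 markers 7 of 8 were called lower (median -0.78), and of the CA3 markers 5 of 8 higher (median 0.30). Of the oligodendrocyte markers 4 of 8 were called lower (median -0.46). The microglia level ran from 3.61 to 3.78 in YWT-BV and from 4.43 to 5.10 in OWT-BV on the log2 scale. With no overlap, that covariate could hardly be told apart from the set of mice. The part of these markers in the value of Cry1 was not tested. Without YWT-BV-1915 Per3 was called as well, among 2328 genes higher and 972 lower. Per1 differed by 0.08 (interval -0.03 to 0.19) and Per2 by 0.01 (interval -0.16 to 0.17).

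Arntl and Npas2 were also called lower in trained old mice, by log2 fold changes of -0.37 and -0.55 (adjusted p = 0.0139 and 0.00104 from limma). They were 2 of 7 activators, beside 8.81% of all genes called lower. Of the other clock repressors 2 of 7 were called higher, Bhlhe41 (0.35) and Timeless (0.28). In the list of kinases and ligases, 4 genes were called higher and 1 lower. Usp2, which encodes a deubiquitinase of clock proteins, was higher by 0.17 on the log2 scale. The 2 age comparisons use different mice, but both confound age with study, and a difference in infusion cannot be told apart from either.

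Between old HDAC3flox/flox and old wildtype mice, no member was called in the homecage or after training. In the homecage 0.127% of all genes were called, all 18 of them lower in H3F, and 511 genes higher and 1289 lower had an unadjusted p under 0.05. Per1, Per2, Per3 and Cry1 had negative differences there, and 44.9% of all genes had positive ones. Cry2 stood at 0.00 (interval -0.20 to 0.20), with a sign that turned with the setting. Per3 was lower by 0.40 on the log2 scale (interval -0.80 to 0.01) and Cry1 by 0.20 (interval -0.38 to -0.02, adjusted p = 0.365 from limma). Without H3F-HC-121B, the difference was -0.24 for Per3, -0.16 for Per2 and -0.18 for Cry1. In the model of all 40 libraries Per3 and Cry1 were called, among 230 genes higher and 1335 lower. The dentate markers were negative for 10 of 10 genes in this comparison, with a median of -0.93, and with their level as a covariate Per2 and Per3 each differed by 0.03. The homecage OWT libraries also serve the comparison with young mice, so the 2 sets of values are not independent.

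After training, the differences between H3F and OWT mice lay between -0.02 and 0.18 on the log2 scale. In this comparison 0.268% of all genes were called. Per1 differed by 0.18 (interval -0.01 to 0.37), Per2 by 0.12 (interval -0.15 to 0.38) and Cry2 by 0.12 (interval -0.03 to 0.28). Per3 and Cry1 stood at -0.02 and -0.01, and their signs turned under both other scalings. Cry2 was called with library weights, among 78 genes higher and 291 lower.

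**Figure D3:**
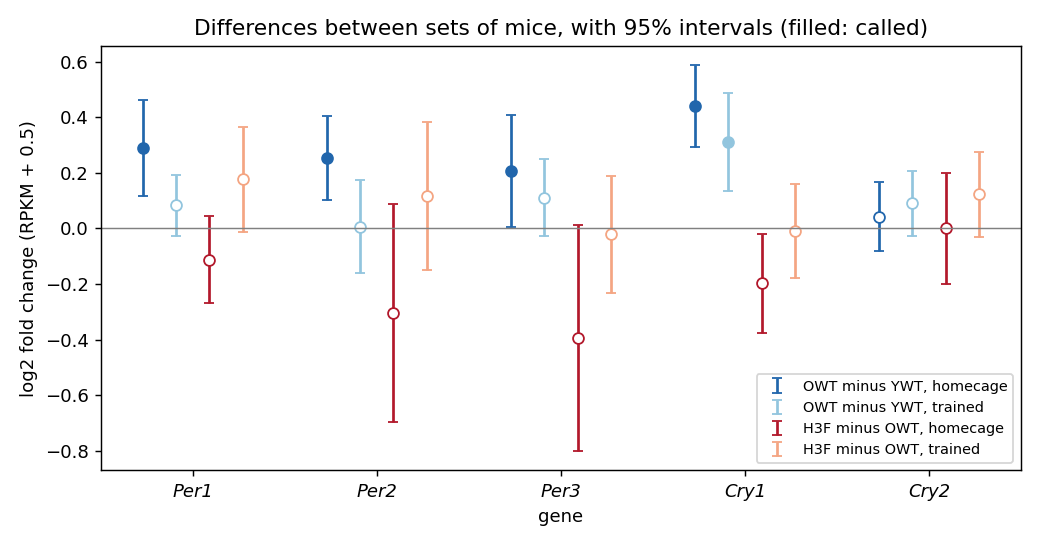
Log2 fold change between sets of mice (vertical axis, RPKM + 0.5) for each gene, in the homecage and after training, with 95% intervals from limma, and filled points for called genes. Cry1 was higher in OWT than in YWT mice in the homecage (0.44) and after training (0.31), and H3F mice differed from OWT mice in no called gene.

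The members were next compared mouse by mouse, to see whether a mouse with a high level of 1 gene also had high levels of the others. Group means were removed from log2(RPKM + 0.5), and 10 pairs were tested over 40 libraries with 100000 permutations of mice within groups. All 10 Pearson correlations were positive, and 8 passed a Benjamini-Hochberg adjusted p under 0.05 over the 10 pairs. The points share library depth and tissue makeup. Ranked by this correlation among 13036 genes, the other members stood at 239 to 888 for Per1 and 11 to 3856 for Per2. They stood at 24 to 3732 for Per3, 297 to 4647 for Cry1 and 188 to 4685 for Cry2. For most pairs, many other genes thus correlated more closely with a member.

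The closest pair was Per2 and Per3, with r = 0.84 (permutation p = 2e-05, adjusted p = 0.0002) and a Spearman rho of 0.66 (permutation p = 3e-05, adjusted p = 0.0003). Without the 2 libraries farthest from the median of Per2, r was 0.61. By set of mice, r was 0.68 in YWT, 0.04 in OWT and 0.93 in H3F. The difference between the sets was not tested.

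Per3 and Cry2 had r = 0.66 (permutation p = 9e-05, adjusted p = 0.00045) and rho = 0.59 (permutation p = 0.00052, adjusted p = 0.0026). The value was 0.50 without the 2 farthest libraries, and 0.38 in YWT, 0.65 in OWT and 0.72 in H3F. Per1 and Cry2 had r = 0.49 (permutation p = 0.00267, adjusted p = 0.00765) and rho = 0.49 (permutation p = 0.0030, adjusted p = 0.0075), with 0.52 when the 2 libraries farthest on Per1 were left out. Per1 and Per2, which both respond to activity, had r = 0.46 (permutation p = 0.00306, adjusted p = 0.00765) and rho = 0.54 (permutation p = 0.00086, adjusted p = 0.00287). Their r was 0.38 without the 2 farthest libraries, and 0.53, 0.66 and 0.44 in YWT, OWT and H3F.

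Cry1 and Cry2 had the weakest relation, with r = 0.15 (permutation p = 0.398, adjusted p = 0.398) and rho = 0.09 (permutation p = 0.612, adjusted p = 0.612). It was -0.05 in OWT. Per2 and Cry1 also failed the threshold, at r = 0.33 (permutation p = 0.0713, adjusted p = 0.0792) and rho = 0.30 (permutation p = 0.0761, adjusted p = 0.0845). Per2 and Cry2 had r = 0.55 over the 40 libraries and 0.26 without the 2 farthest ones, and only the first passed the threshold. By set of mice, their r was 0.57 in YWT, 0.27 in OWT and 0.61 in H3F. The remaining pairs, Per1 with Per3, Per1 with Cry1 and Per3 with Cry1, lay between 0.36 and 0.43. Without the 2 farthest libraries, r was 0.32 for Per1 with Per3 (adjusted p = 0.0613 by permutation) and 0.30 for Per1 with Cry1 (adjusted p = 0.0932 by permutation), past the threshold for neither.

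**Figure D4:**
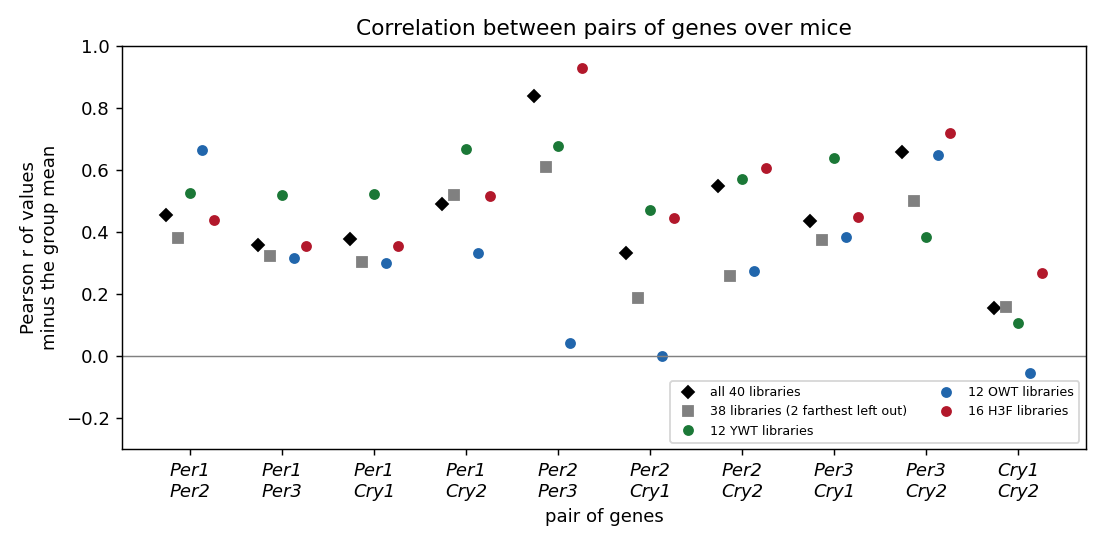
Pearson correlation of log2(RPKM + 0.5) minus the group mean (vertical axis) for the 10 pairs of genes, over all 40 libraries, without the 2 libraries farthest on the first gene, and in each set of mice alone. Per2 with Per3 was highest overall at 0.84 but stood at 0.04 in the 12 OWT libraries.

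The genes whose values over mice were most like those of each member, among 13036 genes whose mean was 1 RPKM or more, were named by Pearson correlation over the 40 libraries without group means. These are descriptions, since each is the top of many. Per1 was most like Prr36 (0.70), Tnnt2 (0.68), Cpne5 (0.68), Camk2g (0.67) and Clcn2 (0.67), and Per2 ranked 376th for it. For Per2 the genes were Bbs1 (0.87), Abcc5 (0.86), Palm2 (0.86), Gatsl2 (0.86) and Cstf2 (0.85), with Per3 at rank 11. For Per3 they were Usp28 (0.87), Mapkbp1 (0.86), Trappc11 (0.86), Prkacb (0.86) and Rasal2 (0.86), with Per2 at rank 24.

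Cry1 was most like Arhgap10 (0.69), Tnnt2 (0.65), Tekt5 (0.62), Fam3c (0.62) and Mef2c (0.61). Cry2 was most like Diras2 (0.86), Inpp4a (0.81), Tom1l2 (0.81), Prickle1 (0.81) and Neurl4 (0.80). With group means kept, the list of Per1 was Fosb (0.77), Frmd6 (0.71), Per2 (0.71), Egr3 (0.70) and Egr1 (0.70). Fosb, Egr1 and Egr3 are activity-induced transcription factors, and the values then include the differences between homecage and trained groups. Of the 5 genes of each member, 0 were shared between both ways for Per1, Per2, Per3 and Cry1, and 2 for Cry2.

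The members were also set beside 10 lists of cell type markers over the 40 mice, as 50 correlations without group means, each with permutations within groups and adjusted over the 50. Per3 followed the dentate granule markers, with r = 0.73 (permutation p = 0.00062, adjusted p = 0.0103) and rho = 0.58 (permutation p = 0.00042). The r was 0.66 without the 2 libraries farthest on the marker level, and 0.15, 0.75 and 0.78 in YWT, OWT and H3F. Against the microglia markers, Per3 had r = -0.54 (permutation p = 0.00104, adjusted p = 0.0130) and rho = -0.59 (permutation p = 0.00016), with -0.49 without the 2 farthest libraries. It was negative in each set, at -0.47, -0.61 and -0.63.

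Cry2 ran against the microglia markers, with r = -0.64 (permutation p = 0.00017, adjusted p = 0.0085) and rho = -0.65 (permutation p = 0.00015). The r was -0.56 without the 2 farthest libraries, and -0.05 in YWT, -0.68 in OWT and -0.71 in H3F. Cry2 followed the neuron markers with r = 0.62 (permutation p = 0.00044, adjusted p = 0.0103) and rho = 0.60 (permutation p = 0.00059). That relation was positive in the 3 sets, at 0.51, 0.82 and 0.57, and stood at 0.52 without the 2 farthest libraries. Libraries with higher microglia and lower neuron marker levels thus had less Cry2, and the differences between the 3 sets were not tested.

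Per1 had r = -0.04 with the dentate markers (permutation p = 0.821, adjusted p = 0.952, rho = 0.01, permutation p = 0.975) and passed the threshold only for the CA1 markers. There r was 0.48 (permutation p = 0.00233, adjusted p = 0.0233) and rho 0.56 (permutation p = 0.00083), with 0.59 without the 2 farthest libraries. It was -0.05 in YWT, 0.48 in OWT and 0.57 in H3F. Per2 had r = 0.55 with the dentate markers (permutation p = 0.0250, adjusted p = 0.156, rho = 0.28, permutation p = 0.134), which fell to 0.41 without the 2 farthest libraries. No relation of Cry1 with a marker list passed the threshold.

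**Figure D5:**
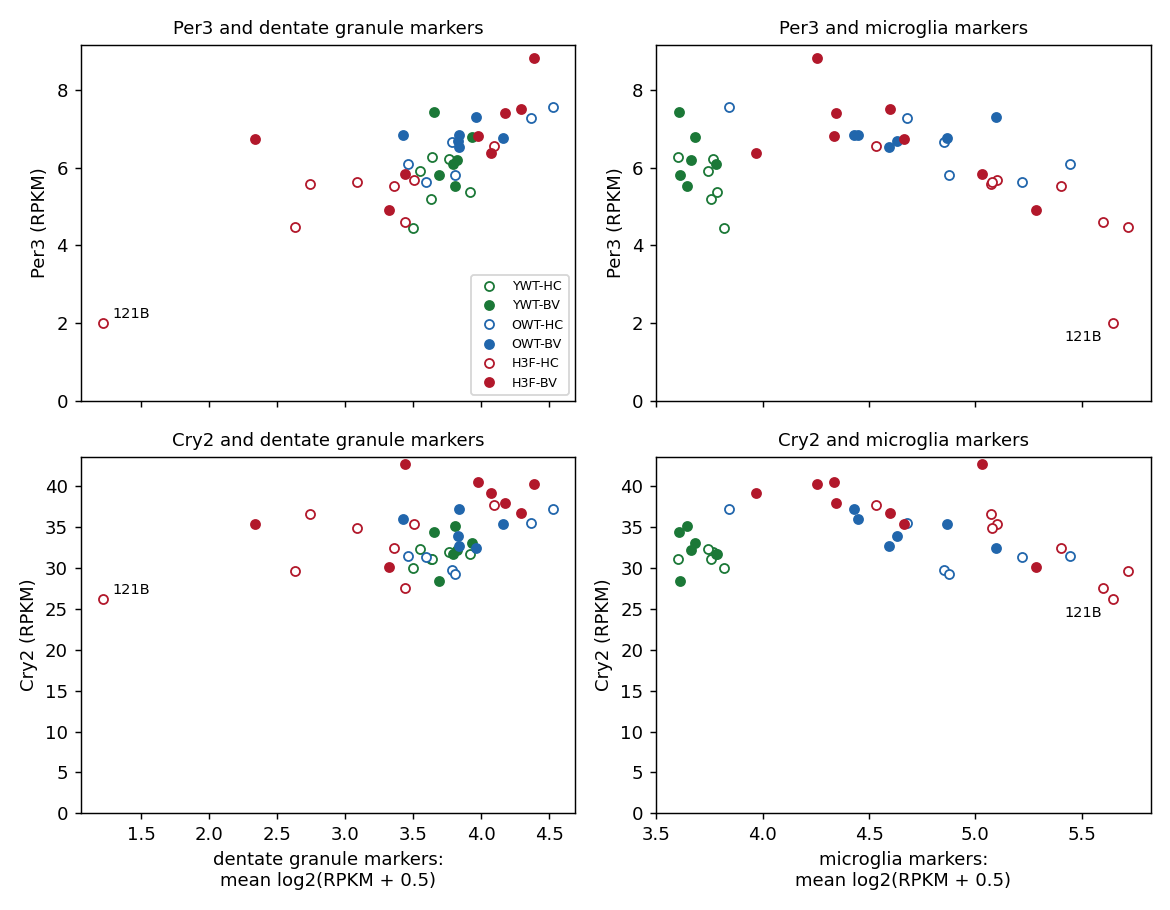
RPKM of Per3 (upper panels) and Cry2 (lower panels) against the mean log2(RPKM + 0.5) of the dentate granule markers (left) and microglia markers (right), 1 point per library, colored by group, with open points for homecage mice. H3F-HC-121B, with the lowest dentate level (1.22) of the 40 libraries, had the lowest Per3 (2.00 RPKM) and the lowest Cry2 (26.2 RPKM).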

How the data were processed

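Dorsal hippocampal RNA was sequenced as unstranded poly-A libraries with single reads of 50 bases. Per the labels and the methods of the study, the authors filtered reads with CASAVA 1.8.2, aligned them to mm10 with ELAND and Bowtie (Bowtie2 in the submitters' processing notes), kept reads placed uniquely by both, and deposited RPKM values. A second deposited table repeats these values beside the authors' group means, SDs and p-values, which were not used. The number of sample columns that matched no sample was 0.

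For the comparisons, log2(RPKM + 0.5) of the 14173 genes whose mean was 0.5 RPKM or more was fitted in limma 3.58.1 under R 4.3.3 (linear model, empirical Bayes with trend), on the libraries of the compared groups only. Changes are on this scale, which understates low genes. Exact permutation tests (two-sided) and permutations for correlations ran in Python 3.11.15 with numpy 2.4.6, pandas 2.3.3 and scipy 1.17.1, and figures in matplotlib 3.10.9. The script was tested on simulated data. Gene positions came from GENCODE vM21. The text names the 5 members, up to 4 called clock genes and PER or CRY regulators per comparison by smallest p, and for each member the 5 genes most like it. Genes outside this rule were chosen after their values were seen. The members and lists were chosen with earlier results of these data known. The files hold no read counts, so depth is known only as a ratio between libraries. No 2 libraries were identical (0 pairs). Each mouse is a separate animal. The alternatives were 2 other pseudocounts (0.1 and 1), other filters on low values, median-ratio scaling, quantile normalization, a model of all 40 libraries, library weights, a regularized t on RPKM (window of 101 genes, 10 prior observations), sex as a covariate, an adjusted p under 0.05, leaving out each library, and, chosen after the data were seen, dentate or microglia marker levels as a covariate. One gene of the list of kinases and ubiquitin ligases enters the counts but is not reported here by itself.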

Additional observations from a re-analysis of the deposited data

Results flagged for a closer look

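Of 30 groups of values (5 genes in 6 groups), 1 held a library far from the others by Dixon's criterion, which chance alone meets in about 1 of 20 groups. Per3 stood at 2.00 RPKM in the homecage HDAC3flox/flox library H3F-HC-121B, the lowest of 8, and the group had a median of 5.54 RPKM. The same library had the lowest Per2 and Cry2 of its group and the lowest level of dentate granule markers of all libraries, and the part of those markers in the value was not tested.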

How the results depend on the processing

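Results are given as the number of the 5 genes called in a comparison, or as a log2 fold change. For the training effect in YWT, 2 genes were called, and 1 (Per1) in the model of all 40 libraries, at an adjusted p under 0.05 and with the dentate marker level as a covariate, and 0 with the microglia marker level. Leaving out single libraries gave 1 to 2. In OWT the count of 0 became 1 (Per1) with library weights, and 0 to 1 when single libraries were left out. In H3F the count of 0 became 1 (Per1) with a pseudocount of 1, a minimum mean of 1, median-ratio scaling or quantile normalization, and 5 in the model of all 40 libraries and with library weights. Leaving out single libraries gave 0 to 5 there. With library weights, 1 gene was also called in each of H3F minus OWT (Per2), OWT minus YWT (Per2) and H3F minus YWT (Cry2) training effects, and in trained H3F minus OWT (Cry2). Over all genes the weights then called 626 higher and 170 lower, 994 and 2621, 2634 and 3897, and 78 and 291 in these 4 comparisons. Homecage OWT minus YWT went from 4 to 1 under quantile normalization, to 3 to 4 without single libraries, and to 2 in the model of all 40 libraries, where homecage H3F minus OWT also gave 2. Over all genes, 2492 were called higher and 5270 lower under that normalization. The model of all 40 libraries called 3760 and 1577 for homecage OWT minus YWT, and 230 and 1335 for homecage H3F minus OWT. Trained OWT minus YWT went from 1 to 0 with the microglia covariate, and stood at 1 to 2 without single libraries. The number of gene pairs past the threshold, 8 of 10, was 5 without the 2 farthest libraries, 2 in YWT alone, 0 in OWT alone and 3 in H3F alone, which hold fewer libraries. Apart from that construction, the cause of these changes was not tested.

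Signs turned mostly for values near 0. With the microglia covariate, Cry2 was -0.0163 in the H3F minus OWT training effect, and Per2, Per3 and Cry2 were -0.1471, -0.0823 and -0.0149 in H3F minus YWT, where Per2 was -0.0291 with the dentate covariate. Per3 was 0.0291 in the OWT minus YWT training effect under quantile normalization. In homecage OWT minus YWT, Cry2 was -0.0129 under median-ratio scaling, -0.0162 under quantile normalization and -0.0214 with the dentate covariate. In homecage H3F minus OWT, Cry2 was 0.0309 under median-ratio scaling, 0.066 with library weights, 0.0052 by the regularized t, 0.0302 with sex as a covariate, 0.1482 with the dentate and 0.1268 with the microglia covariate, and between -0.0318 and 0.0421 without single libraries. Per2 and Per3 were 0.0319 there with the dentate covariate. In trained OWT minus YWT, Per2 was -0.0196 under median-ratio scaling, -0.0626 under quantile normalization, -0.0294 with library weights, and between -0.0384 and 0.038 without single libraries. In trained H3F minus OWT, Per3 was 0.0143, 0.015 and 0.0966 and Cry1 0.025, 0.0215 and 0.0098 under median-ratio scaling, quantile normalization and library weights. Without single libraries, Per3 ran from -0.0733 to 0.0385 and Cry1 from -0.0486 to 0.0239. Cry1 with Cry2 correlated at -0.0549 in OWT alone. Of the other values of single genes, pairs and likeness lists under the alternatives, 1423 kept their direction and side of the threshold, 49 lost it, 33 gained it and 5 moved. No paired analysis was possible because the labels give the groups no shared replicate numbers. Relative depth differed 3.05 times between libraries, and the deposited values carry no read counts from which a counting error could be had.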
